A study of Mus musculus with 6 samples.

Results

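The 10 genes described here are the D-type cyclins Ccnd1, Ccnd2 and Ccnd3, their kinases Cdk4 and Cdk6, the inhibitors Cdkn1a, Cdkn1b and Cdkn1c, the retinoblastoma gene Rb1, and Rgcc, a regulator of cell cycle. They were chosen by gene symbol and are read by 28 of the 45101 probe sets on the array, a probe set being a group of short probes for the same transcript. In the fit over all genes each gene was represented by its brightest probe set, and all 10 were among the 12735 genes tested. The genes were chosen with results of the comparison below already known, so their levels and differences are a description and not a test.

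RNA from the left ventricle of 6 male C57BL/6 mice was measured on Affymetrix arrays, 1 array per mouse. Every mouse was aged 6 months and was kept on high fat food over 16 weeks. The placebo group and the group given Lira, an agent named in the labels by that word alone, had 3 mice each. The design mentions 10 mice, and those outside these groups are not analysed here. Diet-induced obesity is shared by both groups, so there is no lean group against which a level could be set.

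D-type cyclins bind Cdk4 or Cdk6, and the complexes phosphorylate the retinoblastoma protein, which releases E2F factors and lets a cell pass from G1 into S phase. The p21, p27 and p57 proteins, made from Cdkn1a, Cdkn1b and Cdkn1c, bind cyclin and kinase complexes and restrain them, although p21 and p27 also help cyclin D complexes to assemble. Adult heart muscle cells divide rarely, and much of the cell cycling in an adult ventricle is in endothelial cells, fibroblasts and immune cells. Rgcc, also known as RGC-32, is a small protein that responds to complement and growth factors, binds Cdk1 and is well expressed in endothelial cells.

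2 of the 10 genes stood apart between the groups. The log2 difference, Lira minus placebo, was -1.15 ± 0.17 (SE) for Rgcc, a 2.21-fold lower value, and -0.78 ± 0.15 for Ccnd1, a 1.72-fold lower value, with every Lira array below every placebo array in both genes. The other 8 genes overlapped between the groups, with log2 differences from -0.14 for Cdkn1a to 0.13 for Cdkn1c. The median difference of the 10 genes was -0.04, with 7 lower and 3 higher, while the median over all genes tested was 0.01 and 48.0% of them were lower. Groups that do not overlap were found in 11.4% of all genes tested, and in 5.46% with the Lira arrays lower. 1 of the 10, Rgcc, had an adjusted p under 0.05 in limma, where 0.055% of all genes did. The comparison was the one with which the genes were chosen, so nothing is read from these counts.

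The promoter of Rgcc, the gene with the largest difference, is shown beside that of Cdk4, the gene whose brightest probe set varied least within groups. Both windows run from 250 bases before to 50 bases after the annotated start, in RefSeq's GRCm38.p6 sequence, where 6 of the 10 genes had an entry, with 8 windows in all. The Rgcc window is chr14:79301586-79301885 on the minus strand, and capitals mark the GC box GGGCGG and its reverse complement CCGCCC, the kind of motif that Sp1 family factors bind. The Cdk4 window is chr10:127063285-127063584 on the plus strand, and capitals mark the E-box CACGTG, which Myc family factors bind and which reads the same on both strands.
Rgcc: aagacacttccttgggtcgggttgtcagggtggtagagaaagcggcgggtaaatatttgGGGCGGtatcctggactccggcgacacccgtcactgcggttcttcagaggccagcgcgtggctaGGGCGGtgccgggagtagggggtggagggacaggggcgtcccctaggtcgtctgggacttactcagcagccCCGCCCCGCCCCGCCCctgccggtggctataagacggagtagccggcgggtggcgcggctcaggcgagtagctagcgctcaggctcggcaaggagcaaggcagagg
Cdk4: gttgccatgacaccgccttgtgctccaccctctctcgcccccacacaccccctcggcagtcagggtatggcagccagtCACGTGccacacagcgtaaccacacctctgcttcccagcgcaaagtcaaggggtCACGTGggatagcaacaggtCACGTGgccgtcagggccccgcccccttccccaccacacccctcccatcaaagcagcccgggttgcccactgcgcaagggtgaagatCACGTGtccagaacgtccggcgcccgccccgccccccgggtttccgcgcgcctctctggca

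The Rgcc window held 5 GC boxes, 3 of them in a run in which neighbouring matches share a base, and the matches began between positions -191 and -46 relative to the start. It held 0 E-boxes, which says only that these letters are not in this window. The Cdk4 window held 4 E-boxes between -172 and -11 and 3 GC boxes that are not capitalised. Of 32851 RefSeq promoter windows of this length, 35.7% held a GC box and 7.15% an E-box. Among the other genes, Ccnd3 had 2 GC boxes in each of its 2 windows, Cdkn1a had 2 in 1 of its 2 windows, Cdkn1b had 1, and Cdk6 had an E-box and 0 GC boxes. A match is a string of letters and does not show that a factor binds there.

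Rgcc lies on chromosome 14 from 79288750 to 79301635 in GRCm38.p6, Entrez gene 66214. Signals are in arbitrary linear units, on arrays that the authors scaled to one trimmed mean. On its brightest probe set Rgcc measured 2703, 2781 and 4281 in placebo mice 1, 2 and 3, and 1712, 1458 and 1167 in Lira mice 1, 2 and 3. The groups were well apart, since the lowest placebo array was 2703 and the highest Lira array 1712. Placebo mouse 3 stood above the other placebo mice, and the spread was wider with placebo, at 3255 ± 889 (SD, n = 3), than with Lira, at 1446 ± 273.

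The second Rgcc probe set gave the same separation with less spread. It measured 1594, 1479 and 1836 with placebo and 1070, 1040 and 801 with Lira. Its log2 difference was -0.75 ± 0.16 (SE from the arrays alone), smaller in size than the -1.15 of the brighter set. The SE of the brighter set was 0.27 on that measure, beside 0.17 in limma. Placebo mouse 3 was again the highest and Lira mouse 3 the lowest array. The same 2 mice thus marked the ends of the range on both probe sets.

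The Rgcc difference had rank 5 by p among the 12735 genes tested, and its size was larger than that of 99.9% of them. The 95% interval of the log2 difference was -1.51 to -0.79. The adjusted p was 0.023 in limma, and it moved when single arrays were left out. It was 0.20 without Lira replicate 3, 0.067 without Lira replicate 2 and 0.060 without placebo replicate 2. It was 0.042 without Lira replicate 1, 0.039 without placebo replicate 1 and 0.020 without placebo replicate 3. Each omission also leaves fewer arrays in the group. The log2 difference stayed between -1.28 and -0.93 with any array left out. With the replicate number as a block the adjusted p was 0.060, with the mean of both probe sets it was 0.14, and without the variance trend it was 0.88, the highest of the 18 alternatives.

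**Figure D1:**
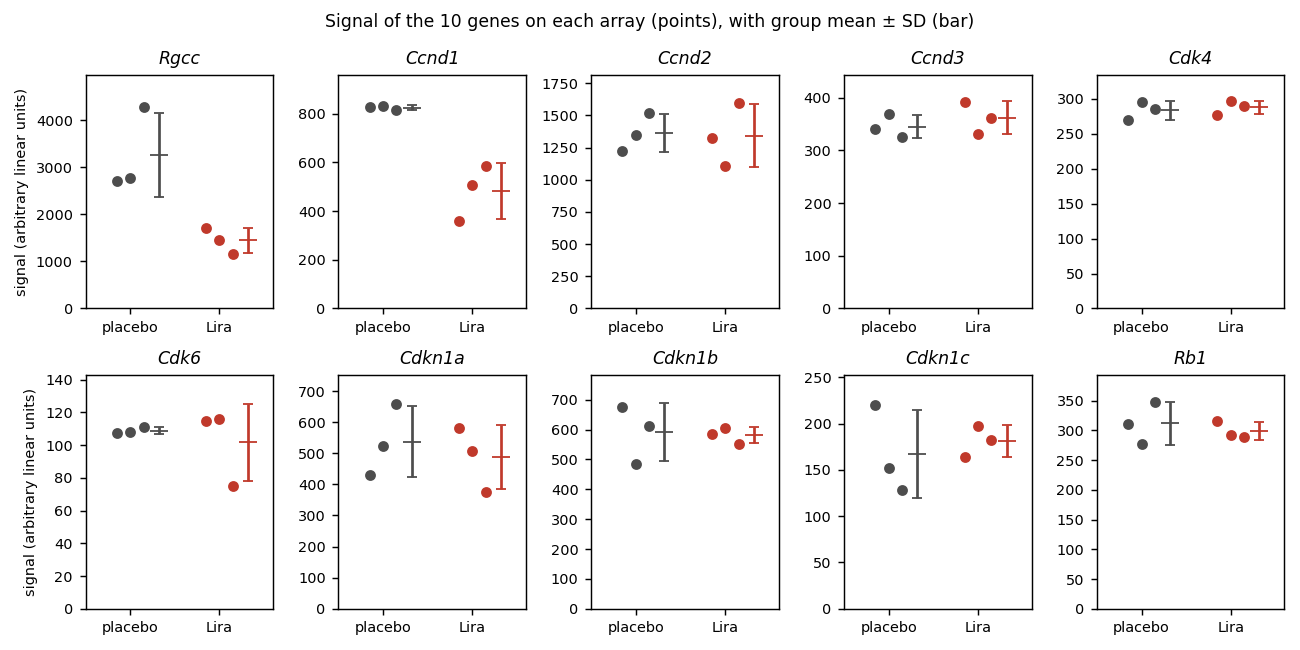
Signal of each of the 10 genes on its brightest probe set (y axes, arbitrary linear units from 0, a separate scale per gene) on the 3 placebo and 3 Lira arrays (points), with the group mean and SD (bar). The 3 Lira points lie below the 3 placebo points in Rgcc and Ccnd1, and the groups overlap in the other 8 genes.

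Ccnd1 encodes cyclin D1, which growth factors induce in early G1. It lies on chromosome 7 from 144929931 to 144939831, Entrez gene 12443. On its brightest probe set the placebo arrays were nearly equal, at 826, 833 and 815 signal units, and the Lira arrays spread more widely, at 358, 508 and 583. The group values were 825 ± 9.14 and 483 ± 115 (SD, n = 3), and Lira mouse 1 was the lowest.

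The other 2 probe sets of Ccnd1 also kept the groups apart. The second measured 765, 822 and 767 with placebo and 485, 581 and 501 with Lira, a log2 difference of -0.58 ± 0.09 (SE). The third and dimmest measured 124, 153 and 153 with placebo and 88.1, 83.3 and 68.8 with Lira, a difference of -0.73 ± 0.13. The 3 probe sets differed in which Lira mouse was lowest, which was mouse 1 on the first and second and mouse 3 on the third. Their differences lay within -0.78 to -0.58.

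The 95% interval of the Ccnd1 difference was -1.10 to -0.46, and its size was larger than that of 99.3% of the genes tested. Ccnd1 had rank 11 by p, with an adjusted p of 0.15 in limma, and it did not pass in any of the 18 alternatives, where the adjusted p ran from 0.056 with array weights to 0.89 without the variance trend. Its log2 difference was between -0.93 and -0.59 in all of them. Without Lira replicate 1, the lowest array, it was -0.59.

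Ccnd2, the D-type cyclin with 7 probe sets, showed no separation of the groups. It measured 1227, 1344 and 1521 with placebo and 1327, 1107 and 1598 with Lira on the brightest set, which gave 1364 ± 148 and 1344 ± 246 (SD, n = 3) and a log2 difference of -0.03 ± 0.13 (SE). The 95% interval was -0.31 to 0.24. The 7 probe sets were not alike, with 6 lower and 1 higher and differences from -0.42 to 0.05. The lowest of these were -0.42 ± 0.34 and -0.39 ± 0.26, with the SE from the arrays alone, which was 0.18 for the brightest set. On these dimmer sets Lira mouse 2 was low, at 74.7 and 239 signal units, and Lira mouse 3 high, at 164 and 461.

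Ccnd3, which lymphoid and muscle cells use, measured 340, 369 and 326 with placebo and 393, 331 and 362 with Lira. The log2 difference was 0.07 ± 0.12 (95% interval -0.18 to 0.32). Its 2 other probe sets were dim, at group means of at most 40.3, and differed in sign, at -0.10 and 0.30. Ccnd1 was thus the D-type cyclin whose groups did not overlap on any probe set, and the difference between Ccnd1 and its relatives was not itself tested.

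**Figure D2:**
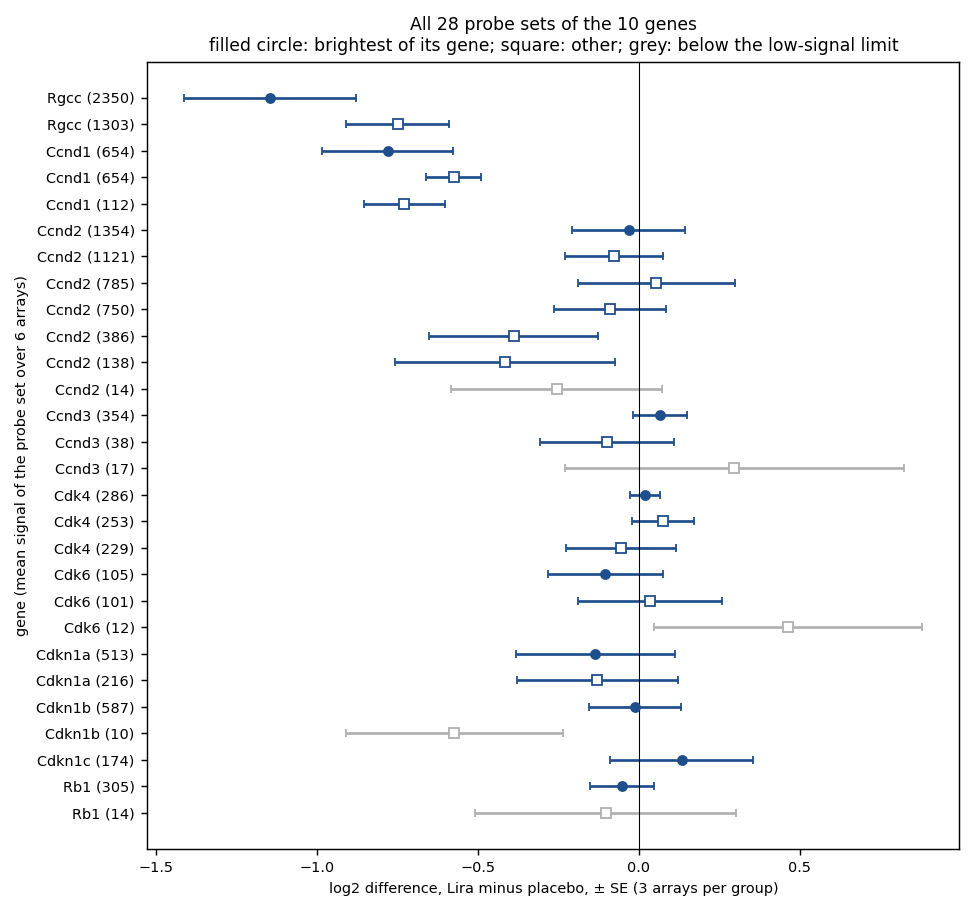
Log2 difference, Lira minus placebo, of each of the 28 probe sets of the 10 genes (x axis), with the SE from 3 arrays per group (bars). Rows are ordered by gene and the number beside each gene is the mean signal of that probe set over the 6 arrays. The 5 probe sets of Rgcc and Ccnd1 lie between -1.15 and -0.58, and grey rows are 5 probe sets below the low-signal limit.

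Over all 28 probe sets, 20 were lower and 8 higher with Lira. The groups did not overlap in 5 of them, the 2 of Rgcc and the 3 of Ccnd1, all lower, where 5.34% of all single-gene probe sets did so in that direction. 5 of the 28 were below the limit that left out the dimmest genes, and these belonged to Ccnd2, Ccnd3, Cdk6, Cdkn1b and Rb1. Probe sets of the same gene read the same RNA from the same mice and are not replicates.

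On the brightest probe sets, the partner kinase Cdk4 was the steadiest of the 10 genes. It measured 269, 296 and 286 with placebo and 277, 297 and 290 with Lira, a log2 difference of 0.02 ± 0.11 (SE) with a 95% interval of -0.23 to 0.27. Its spread within groups was smaller than that of all but 2.6% of the genes tested. The brightest Cdk4 set is of a kind marked as possibly matching other transcripts too. The other 2 sets gave 0.07 ± 0.10 and -0.06 ± 0.17, with the SE from the arrays alone, which was 0.05 for the brightest set. On the set at -0.06 the Lira arrays measured 173, 255 and 250, so Cdk4 was less steady there.

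Cdk6, the second kinase, measured 107, 108 and 111 with placebo and 114, 116 and 74.7 with Lira. Lira mouse 3 alone was low, and it was also the lowest array on the second probe set, at 73.4. The log2 difference was -0.10 ± 0.18, with 0.03 on the second set, and it became 0.07 without Lira replicate 3.

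Among the inhibitors, Cdkn1a, a target of p53 and of stress signals, measured 431, 525 and 658 with placebo and 582, 507 and 377 with Lira. The mice of each group spanned much of the same range, and the log2 difference was -0.14 ± 0.17 (95% interval -0.50 to 0.23), with -0.13 on its second probe set. It became 0.03 without Lira replicate 3 and 0.02 without placebo replicate 3.

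Cdkn1b, which holds resting cells out of cycle, measured 676, 485 and 613 with placebo and 586, 606 and 553 with Lira, a log2 difference of -0.01 ± 0.12. All Lira arrays lay inside the placebo range. Its second probe set was near the bottom of the scale, at 14.9 ± 9.55 and 4.49 ± 5.29 (SD, n = 3).

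Cdkn1c, an imprinted gene whose product p57 restrains growth in development, measured 220, 152 and 129 with placebo and 163, 198 and 182 with Lira. Its difference of 0.13 ± 0.18 had the widest interval of the 3 inhibitors, -0.25 to 0.51. Placebo mouse 1 was the highest array, and without it the difference was 0.33, whereas without placebo replicate 3, the lowest array, it was -0.02.

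Rb1, whose product the cyclin D kinases phosphorylate, measured 311, 276 and 348 with placebo and 315, 292 and 289 with Lira. The log2 difference was -0.05 ± 0.12, with a 95% interval of -0.32 to 0.21. The Lira arrays lay inside the placebo range. The mRNA level carries no information on the phosphorylation of the protein.

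The 5 genes whose pattern over the 6 arrays was nearest to that of Rgcc were Cyp46a1, Acsf2, Ckap2l, Cox15 and Acta1. Likeness was the root mean square distance between log2 values centred on each gene's mean, which was 0.14 for Cyp46a1, 0.17 for Acsf2, 0.21 each for Ckap2l and Cox15 and 0.24 for Acta1, against a median of 0.66 over 12734 genes. Cox15, which takes part in making heme A for cytochrome oxidase, measured 425, 395 and 606 with placebo and 281, 309 and 211 with Lira. Acsf2, an acyl-CoA synthetase, measured 112, 119 and 154 and then 63.6, 61.5 and 52.1. Placebo mouse 3 was the highest and Lira mouse 3 the lowest array in Rgcc and in all 5 of these genes, which were picked for such likeness. None of the other 9 cyclin, kinase and inhibitor genes was among the nearest 5.

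Of 109 other genes on 8 lists of cell cycle and related genes, 84 were tested, and 0 passed an adjusted p of 0.05 in either direction in limma. An unadjusted p under 0.05 was found in 9 of the 84, where 6% of all genes tested had one. There were 0 adjusted calls among them in each of the 18 alternatives. The share called over all genes was 0.055%. Of the 84, 45 were higher and 39 lower with Lira, with a median log2 difference of 0.05. The groups did not overlap in 15 of them, or 17.9%, 11 higher and 4 lower, beside 11.4% of all genes tested. The list of other cyclins and atypical CDKs, some of which act outside the cell cycle, held 6 of the 15, all higher.

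**Figure D3:**
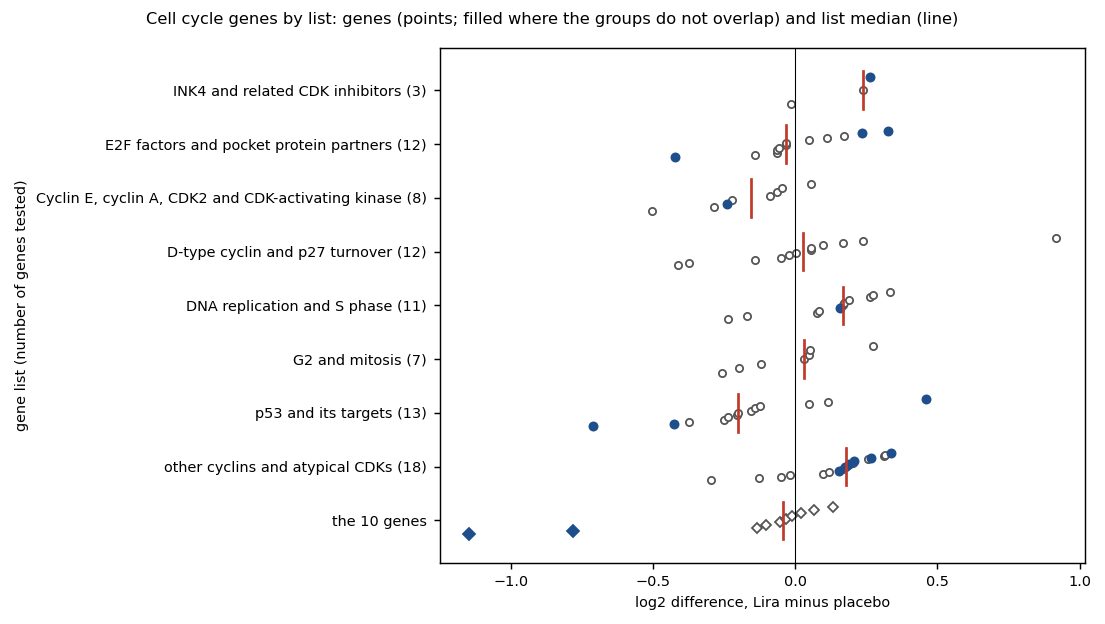
Log2 difference, Lira minus placebo (x axis), of the tested genes of 8 lists of cell cycle and related genes and of the 10 genes (diamonds). A red line marks each median. Filled points are genes whose groups do not overlap. Rgcc and Ccnd1 lie at -1.15 and -0.78, to the left of every gene of the 8 lists, and the highest point is Myc at 0.92.

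Downstream of the cyclin D kinases, 12 E2F and pocket protein genes were tested, 5 higher and 7 lower, with a median of -0.03. The Rb1 relative Rbl2 measured 187 ± 24.3 with placebo and 238 ± 27.3 with Lira (SD, n = 3 per group), a log2 difference of 0.33 ± 0.14 (SE). E2f5, a repressor of the family, measured 88.9 ± 3.89 and 107 ± 7.74. Neither passed, at adjusted p of 0.80 and 0.87 in limma. Of 8 genes of cyclin E, cyclin A, Cdk2 and the CDK-activating kinase, 1 was higher and 7 lower, with a median of -0.15. They included Mnat1, an assembly factor of the CDK-activating kinase, at 155 ± 14.9 and 128 ± 8.38, and Ccne1, at 51.9 ± 22.1 and 31.1 ± 12.4 with overlapping groups.

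Of 16 G2 and mitosis genes 7 were tested, 4 higher and 3 lower, with a median of 0.03. Cenpa, the histone variant of centromeres, measured 581 ± 80.8 with placebo and 603 ± 97.6 with Lira, and the other 6 tested genes had group means of at most 88.2. The proliferation marker Mki67 measured 16.8, 29.9 and 71.6 with placebo and 16.5, 36.2 and 29.4 with Lira. Of 16 replication genes 11 were tested, 9 higher and 2 lower, with a median of 0.17. Pcna, the sliding clamp of DNA polymerase, measured 1098 ± 52.2 and 1226 ± 69.1 and Mcm7, a subunit of the replicative helicase, 203 ± 50.2 and 243 ± 19.7. 0 genes of these lists passed in limma, and 0 had an unadjusted p under 0.05.

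Of the 13 tested genes of p53 and its targets, the list that Cdkn1a would also stand on, the median difference was -0.20, with 3 higher and 10 lower. Gadd45a, which answers DNA damage and stress, measured 260 ± 19.4 with placebo and 160 ± 57.3 with Lira, and Trp53inp1 measured 493 ± 65.2 and 361 ± 17.4. Their adjusted p were 0.56 and 0.55 in limma. An unadjusted p under 0.05 was found in 4 of the 13, where 6% of all genes tested had one. Plk2, also among the 4, was higher with Lira without overlap, at 156 ± 23.2 and 223 ± 54.9 (adjusted p = 0.71, limma). Of 3 tested INK4 and related inhibitors, Cdkn2c, which encodes the Cdk4 and Cdk6 inhibitor p18, measured 212 ± 10.8 and 259 ± 27.2 without overlap (adjusted p = 0.83), and Cdkn2b 21.5 ± 13.4 and 28.6 ± 16.7.

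Among 12 genes of D-type cyclin and p27 turnover, 7 were higher and 5 lower. Myc, which can drive cyclin D and Cdk4 transcription, was dim at 31.6, 10.1 and 9.89 with placebo and 42.9, 68.2 and 27.6 with Lira, with overlapping groups. The ubiquitin ligase scaffold Cul4a measured 303 ± 60.8 and 224 ± 50.4. Of 18 other cyclins and atypical CDKs, the median difference was 0.18, with 14 higher and 4 lower, and 6 had all Lira arrays above all placebo arrays, where 5.99% of all genes tested did. The largest of these was Ccni, a cyclin without a clear role in the cycle, at 1981 ± 86.3 and 2510 ± 230, a log2 difference of 0.34 ± 0.09 (adjusted p = 0.55, limma). Cdk11b, a kinase linked to transcription and splicing, measured 397 ± 44.2 and 497 ± 69.0 with overlapping groups.

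The extraction text of the labels speaks of blood while the sample description and the design name left ventricle. All 8 cardiomyocyte markers were among the genes tested, with Myh6 at 31552 to 39205 signal units. Of the 6 erythroid and platelet markers 4 were measured, and Alas2, Hba-a1, Slc4a1 and Ppbp did not exceed 63.9 on any array. Hba-a1 was read on a probe set that names it alone. Sets that name several genes were left out, so alpha globin signal on any such set was not measured here. The beta globin genes Hbb-bt and Hbb-b1 had no probe set that names either alone and were not measured. The amount of blood RNA was not tested. In bulk RNA, fewer cells of a type and less RNA per cell cannot be told apart. All 11 endothelial markers were measured, with summed signals of 5232 to 6156 with placebo and 5891 to 6216 with Lira. Of these, 9 were higher and 2 lower with Lira, where 48.0% of all genes tested were lower. The higher ones included Cdh5, at a log2 difference of only 0.0004. The 7 capillary endothelial markers summed to 28793 to 31084 and 30196 to 32111, with 5 higher and 2 lower. Gpihbp1, which anchors lipoprotein lipase on capillaries, was among the lower ones, at 2053 ± 111 and 1645 ± 209 (adjusted p = 0.62, limma). Its log2 difference was -0.32, and that of the other lower one, Aqp1, was -0.05. Among the higher ones, Cd36 was at 0.19 and Car4 at 0.16. Cldn5, on the endothelial list, was higher without overlap, at 169 ± 41.2 and 235 ± 0.48 (adjusted p = 0.66, limma).

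Marker sums of some other cell types did not overlap between the groups. Among single genes, 11.4% of all tested had groups that do not overlap. A sum follows its brightest genes, such as Rgs5 for smooth muscle and pericyte, at 7636 ± 554 and 8058 ± 249, and does not count cells. The 6 macrophage markers summed to 2472 to 2545 with placebo and 2605 to 3038 with Lira, and all 6 were higher. The 7 smooth muscle and pericyte markers summed to 9377 to 10496 and 10743 to 12200, also without overlap, and of the 6 tested 4 were higher and 2 lower. Without Acta2, left out after its values were seen, these sums overlapped, at 8303 to 9373 and 8823 to 9390. The 7 fibroblast markers overlapped narrowly, at 11123 to 11713 and 11676 to 13857, and the cardiomyocyte markers widely, at 195773 to 205141 and 192908 to 239445. Lymphocyte, erythroid and adipocyte lists summed to at most 134 on any array, over the 5, 4 and 4 genes measured. 0 of 48 markers tested passed an adjusted p of 0.05 in limma, where 0.055% of all genes tested did. An unadjusted p under 0.05 was found in 5 of the 48, where 6% of all genes tested had one. The part of cell makeup in the Rgcc and Ccnd1 values was not tested.

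**Figure D4:**
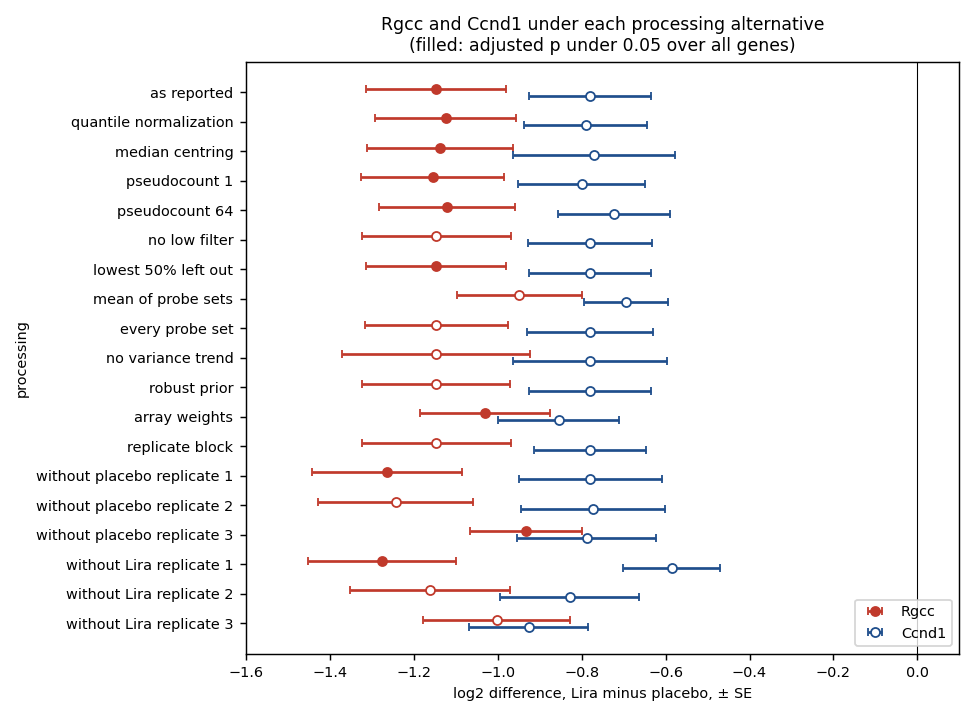
Log2 difference, Lira minus placebo, of Rgcc (red) and Ccnd1 (blue) with its SE (x axis) as reported and under each of 18 processing alternatives (y axis), filled where the adjusted p over all genes was under 0.05. Rgcc stays between -1.28 and -0.93 and Ccnd1 between -0.93 and -0.59, and Rgcc is filled in 9 of the 18 alternatives and Ccnd1 in 0.

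The 2 genes kept their direction in all 18 alternatives, as did Ccnd3, and the other 7 genes changed sign in at least 1. Cdkn1b had the sign of its reported difference in 14, and Ccnd2, Cdk4, Cdk6 and Cdkn1a in 16 each. The within-group spread on the log2 scale was 0.33 for Rgcc, 0.25 for Ccnd1 and 0.30 for Cdkn1a, against 0.06 for Cdk4 and 0.10 for Ccnd3.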

How the data were processed

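Left ventricle RNA was measured on 6 arrays, 3 placebo and 3 Lira. The deposited values are linear signal intensities from the authors, for which the submitters' processing notes name Affymetrix Expression Console; its version, the summarisation and the genome build are not given in these sources. Each array has a 2% trimmed mean of 150, as checked on the values, and medians run from 28.6 to 39.6. Such scaling shows changes relative to other genes only. Array number limits the precision, and there are no detection calls.

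Control probe sets (64) were dropped. Of the others, 34945 name 1 gene, 932 several and 9160 are not in the name table. Symbols were updated by gene ID to RefSeq GRCm38.p6 (99.4% matched). Each of 18193 genes took its brightest probe set. Values were log2(signal + 16), and the dimmest 30% of genes by mean were dropped. This scale understates fold changes of dim genes. The groups were compared in limma 3.58.1 (R 4.3.3; lmFit, eBayes with trend, two-sided, Benjamini-Hochberg over 12735 genes at 0.05). The fit was also run on simulated independent normal noise with planted differences and variances drawn from limma's own fit. Such data meet the model by construction, so that run does not show how the fit behaves on these arrays. SE of single probe sets come from the arrays alone. Members, lists and alternatives were chosen with earlier results of these data known. Named genes are the 10 members, the 2 smallest p of each list and the 5 nearest to Rgcc. Gpihbp1, Cenpa, Plk2 and marker genes were named after their values were seen.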

Additional observations from a re-analysis of the deposited data

How the results depend on the processing

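The number of genes called over all genes, 7 as reported, was 1 with no low filter, 0 with the mean of probe sets (684 at an unadjusted p under 0.05), 2 with every probe set, 0 without the variance trend (687 unadjusted) and 4 with the replicate block. The number of the 10 genes called, 1 as reported, was 0 under those settings and with a robust prior, with 2 at an unadjusted p under 0.05 in each. Rgcc kept its call under quantile normalization, median centring, pseudocounts of 1 and 64, array weights and with the lowest 50% of genes left out. Leaving out single arrays gave 1 to 9 genes called, 0 to 1 of the 10 genes called and 2 to 3 of the 10 genes with groups apart. Of the cell cycle and related genes on the 8 lists, 0 were called. The replicate numbers are not known to pair mice: deviations of same-numbered mice correlated at -0.04, 0.09 and -0.09, and 1 of 3 placebo arrays was most like the Lira array of its own number. With the replicate block the adjusted p of Rgcc was 0.060. The cause of these changes was not tested. No low filter and every probe set adjust over more tests, 18193 and 24461. Their fits also gave a larger SE for Rgcc, 0.178 and 0.170, beside 0.167 as reported. Among single differences, 2 moved by more than their spread, Cdk6 (0.13) and Cdkn1b (-0.29), both with the mean of probe sets, which includes their dim sets. With 3 mice per group and no detection calls, differences the size of those in the other 8 genes were not resolved.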
